A study of Mus musculus with 56 samples.

Results

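The growth hormone and insulin-like growth factor (IGF) axis was followed through 10 genes in mouse liver RNA: the receptor Ghr, the secreted factor Igf1, the IGF carriers Igfals, Igfbp3, Igfbp1 and Igfbp2, the inhibitor Socs2, and the growth hormone-controlled genes Slco1a1, Mup20 and Mup17. They were taken by symbol from the 21888 gene symbols of the RNA-seq table, and all 10 had exactly 1 row. The choice was made from day 45 against day 0, where Mup17 and Slco1a1 have some of the largest falls, so day 45 values of these genes are described and not tested. The choice set no threshold on any value. The libraries came from 14 livers, 1 mouse each, of strain 129Sv/J. Of these, 11 mice carried LoxP sites on both sides of miR-122, a liver-enriched microRNA. Uninjected floxed mice (day 0, n = 3) were compared with floxed mice taken 21 or 45 days (n = 3 each), 100 days or 200 days (n = 1 each, joined as 1 group of 2) after tail vein injection of rAAV8 carrying Cre under the Ef1a promoter, which is not restricted to hepatocytes. The remaining mice were germline miR-122 knockouts (n = 3), a separate line, so that line and loss of miR-122 cannot be told apart. The labels give neither age nor sex, and no uninjected mice of the later days or mice given a control vector were analysed here, so excision, vector and time after injection cannot be told apart either.

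Growth hormone from the pituitary binds its receptor on hepatocytes and activates the kinase JAK2 and the transcription factor STAT5B, which switches on Igf1, Igfals and Socs2. The IGF1 protein leaves the liver and circulates mainly in a complex with IGFBP3 and the acid-labile subunit, the product of Igfals. In rodents growth hormone is released in pulses in males and more evenly in females, and genes such as Slco1a1, Mup20, other major urinary protein (Mup) genes and many cytochrome P450 genes respond to that pattern, so liver RNA of this axis differs by sex. Igfbp1 and Igfbp2 also respond to insulin and fasting.

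The promoters of Igfals and Igfbp1 are shown because they hold letters of the motifs for STAT5 and for insulin response. Promoter windows in RefSeq (GRCm38.p6) run from 250 bases before to 50 bases after a transcript start. There were 12 of them for 8 of the 10 genes, with no entry for Socs2 and Mup20. The STAT5 motif TTCNNNGAA, which reads as the same pattern on both strands, occurred in 8.3% of all 32851 windows and in 2 of the 12, both of Igfals. They lie at chr17:24877594-24877893 and chr17:24877981-24878280 on the plus strand, with TTCTCAGAA 236 bases before one start and TTCCTAGAA 58 bases before the other. The sequence CAAAACAA, a core of insulin response elements searched on both strands, occurred in 2.51% of all windows and in 2 of the 12, at 108 bases before the Igfbp1 start (chr11:7197537-7197836, plus strand) and at 72 bases before a Mup17 start. Capitals mark the matches, 5′ to 3′.
Igfals, upstream start: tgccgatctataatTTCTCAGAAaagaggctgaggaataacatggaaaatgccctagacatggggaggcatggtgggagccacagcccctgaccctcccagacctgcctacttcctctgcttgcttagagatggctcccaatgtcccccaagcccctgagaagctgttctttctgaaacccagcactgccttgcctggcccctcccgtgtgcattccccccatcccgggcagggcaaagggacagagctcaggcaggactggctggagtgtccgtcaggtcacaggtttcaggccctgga
Igfals, downstream start: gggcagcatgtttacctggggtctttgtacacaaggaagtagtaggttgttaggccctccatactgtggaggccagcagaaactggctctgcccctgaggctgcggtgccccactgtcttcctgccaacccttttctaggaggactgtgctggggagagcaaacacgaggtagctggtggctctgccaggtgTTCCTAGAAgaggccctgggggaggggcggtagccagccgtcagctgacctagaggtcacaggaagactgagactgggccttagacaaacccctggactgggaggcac
Igfbp1: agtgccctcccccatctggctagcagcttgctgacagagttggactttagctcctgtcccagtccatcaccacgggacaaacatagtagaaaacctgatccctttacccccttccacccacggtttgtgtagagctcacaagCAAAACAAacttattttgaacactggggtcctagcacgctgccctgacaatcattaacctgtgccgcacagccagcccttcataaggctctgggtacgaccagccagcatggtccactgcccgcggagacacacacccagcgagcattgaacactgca
These matches are letters in a window and were not tested for binding.

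Values are FPKM, fragments scaled to transcript length and library size, which allow levels of different genes to be set side by side per length. FPKM hold no fragment numbers, so the depth of each library is unknown. The FPKM of a library added up to 483917 to 608509. In the small RNA libraries miR-122 made up 59.2 to 73.3% of microRNA reads at day 0, 8.22 to 13.2% at day 21, 0.383 to 1.23% at day 45, 4.46% at day 100 and 19.1% at day 200. No small RNA library of the knockout was used here. The summed level of the 8 listed hepatocyte markers was 26600 to 29400 FPKM at day 0, with Alb listed at 0 in all 14 libraries. The Y-linked transcripts (Ddx3y, Eif2s3y, Kdm5d and Uty) summed to 51.1 to 66.8 FPKM in 4 libraries, day 0 B, day 21 C, day 45 C and knockout C, and to at most 0.061 in the other 10. Xist, expressed from the inactive X chromosome, had 0.023 to 0.133 FPKM in those 4 and 12.6 to 71.6 in the other 10, which include the mice of days 100 and 200. Results are therefore given with all mice and, chosen after these data were seen, without those 4 libraries (2 mice in every group). Within the knockout, C differed from A and B, since 3833 genes were called in the knockout with it and 7088 without it. Knockout A and B had 12.6 and 19.8 FPKM of Xist, where the other libraries without Y-linked transcripts had 36.3 to 71.6. They were also the lowest of all 14 libraries for Ghr, Insr, Irs1, Jak2 and Clock, whose knockout falls are given below, and the highest for Hp. Whether the mice or their libraries differed in this was not tested.

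Of the 10 genes, Mup20 and Slco1a1 were highest in the library with Y-linked transcripts in all 4 groups of 3 mice, and Igfals and Igfbp3 were lowest there in all 4. Over all 11354 genes tested, those shares were 2.93% and 3.57%. Mup20 had 2966 to 8336 FPKM in the 4 libraries and 41.9 to 231 in the other 10, with no overlap. Slco1a1 was 3.43, 2.32, 4.12 and 73.5 times the mean of the other mice of its group at day 0, day 21, day 45 and in the knockout. Igfals stood at 0.656, 0.545, 0.653 and 0.30 times that mean. Within a group, these 4 genes thus separated the mice by the same split of the libraries.

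**Figure D1:**
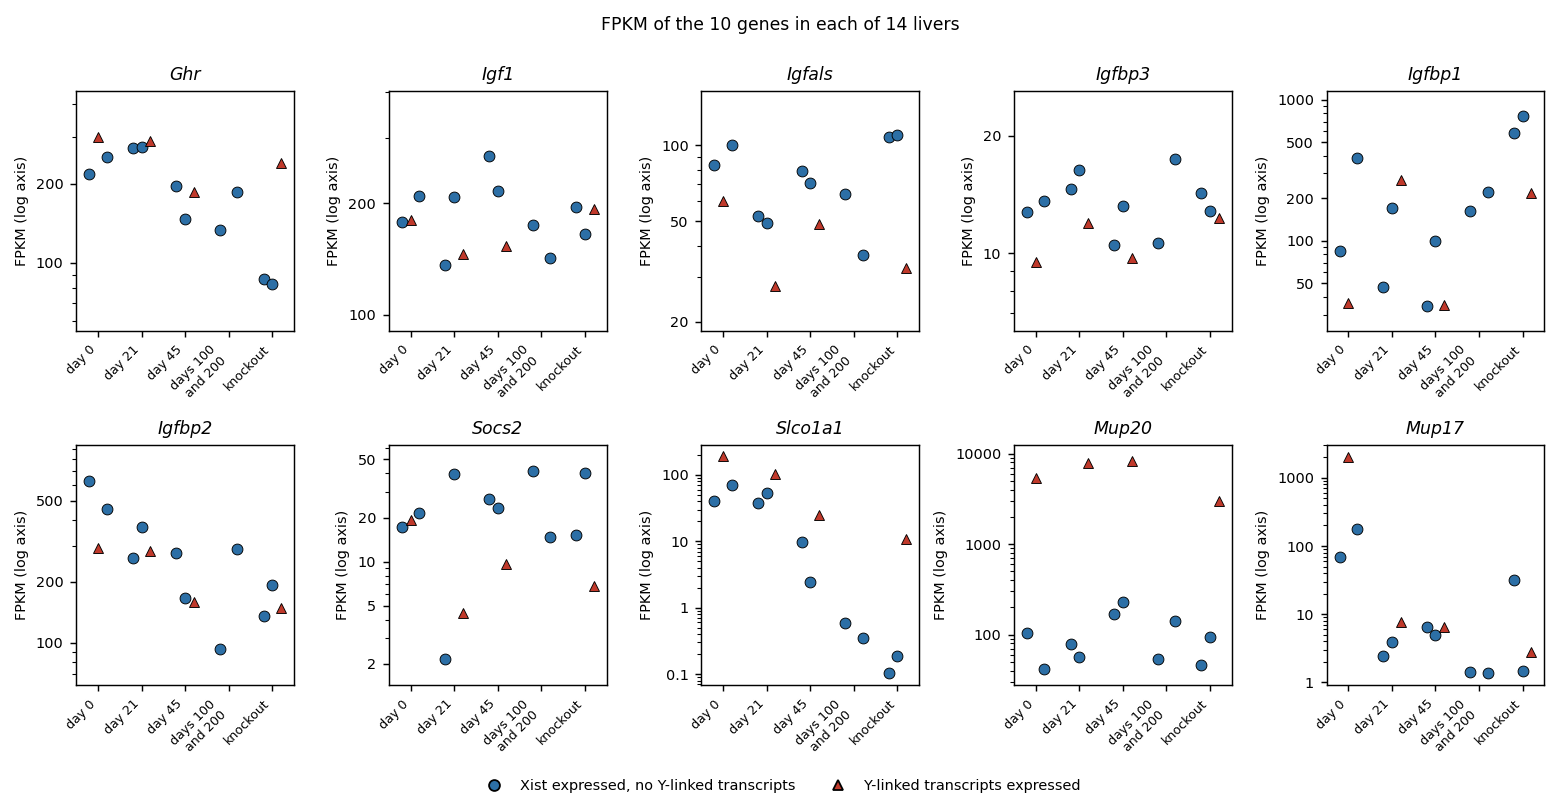
FPKM (log axis) of the 10 genes in each liver by group, with 1 point per mouse. Triangles are the 4 livers with Y-linked transcripts and circles the other 10. Mup20 separates by symbol in every group that has both, while Slco1a1 and Mup17 are lower in the later groups for both symbols where the groups hold both.

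All 10 genes passed the filter of a mean of at least 1 FPKM. Differences are on the log2(FPKM + 1) scale, which understates changes of low genes, and were tested with limma in 1 fit of all 14 mice with Benjamini-Hochberg adjustment over all genes tested. At day 21, 1 of the 10 genes was called, Mup17, where 7.62% of all genes were. At days 100 and 200, 3 of 10 were called, against 31.6% of all genes. In the knockout 4 of 10 were called, against 33.8%. All these member calls were falls, for which the shares over all genes were 1.42%, 3.21% and 14.5%. These 3 comparisons and the one at day 45 that chose the genes share the day 0 mice, so they are not independent of the choice or of each other. The means of days 100 and 200 and of day 21 hold no mouse of the choosing comparison, but the spread was estimated from all 14 mice. For days 100 and 200 against day 21, 1 of 10 genes was called, Slco1a1, against 12.7% of all genes in either direction and 0.625% lower. At day 45 the 10 differences ran from −5.40 (Mup17) to 1.26 (Mup20), beside 26.7% of all genes called. RNA of whole liver cannot tell fewer hepatocytes from less RNA per hepatocyte.

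**Figure D2:**
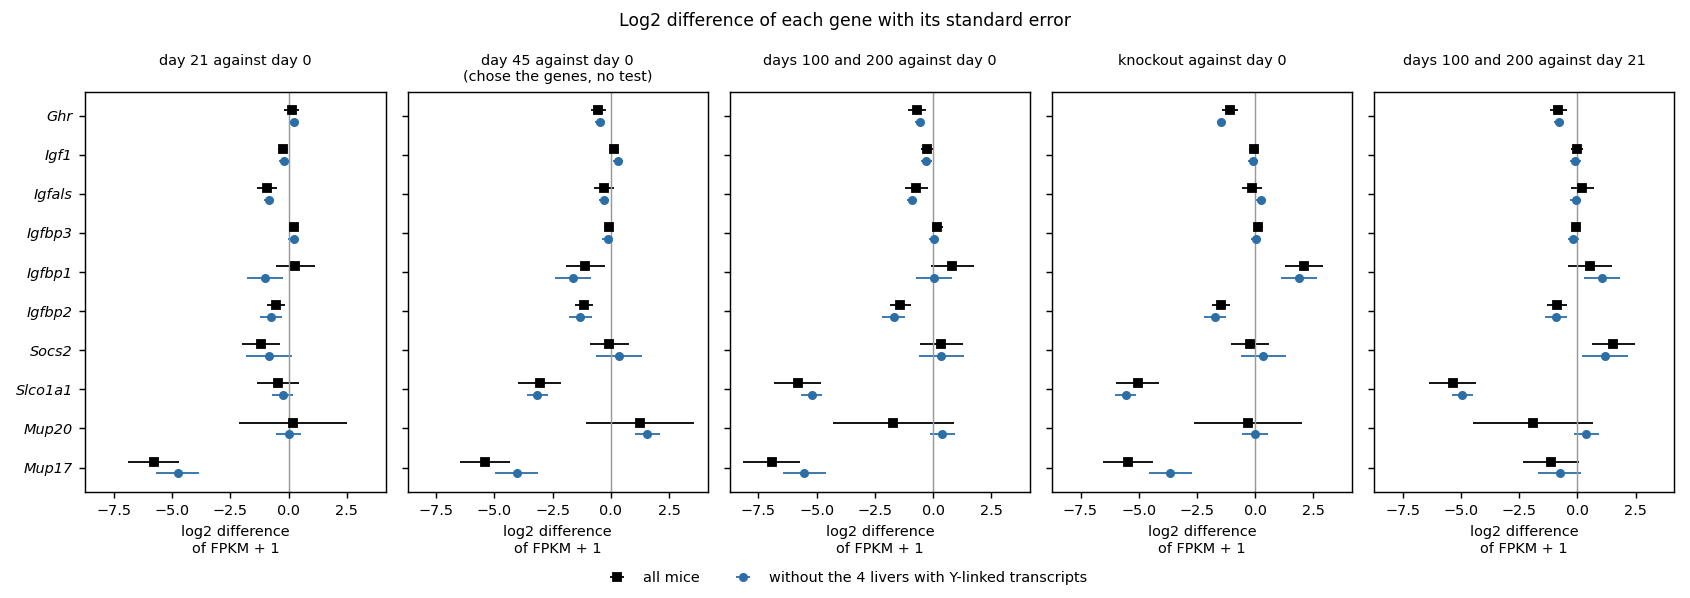
Log2 difference of FPKM + 1 of each gene in 5 comparisons, with bars of 1 standard error. Black squares are all mice and blue circles the 10 mice without Y-linked transcripts. Slco1a1 and Mup17 lie far left of 0 in the late mice and the knockout, Mup17 also at day 21, and the axis genes Igf1 and Igfbp3 stay close to 0 throughout.

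Ghr encodes the growth hormone receptor (mm9 chr15:3267759-3533230, minus strand, 11 exons). It had 217, 301 and 253 FPKM at day 0 and 273, 275 and 290.0 at day 21. At day 45 it had 195, 147 and 186 FPKM, at days 100 and 200 it had 134 and 186, and in the knockout 86.5, 82.7 and 240.2. Every mouse of days 45, 100 and 200 was thus below every mouse of days 0 and 21, and knockout A and B were the lowest of all 14. The difference from day 0 was 0.13 (SE 0.33, limma adjusted p = 0.884) at day 21, −0.69 (SE 0.37, adjusted p = 0.188) at days 100 and 200 and −1.08 (SE 0.33, adjusted p = 0.0272) in the knockout. It was −0.54 at day 45. Knockout C lay within the day 0 range, and without it the knockout difference was −1.58 (adjusted p = 3.1e-05). The knockout call was lost without knockout A (adjusted p = 0.118), without knockout B (0.129), and without day 0 B (0.0937) or C (0.0647). Without the 4 libraries with Y-linked transcripts, Ghr also fell at days 100 and 200, with −0.57 against day 0 (limma adjusted p = 0.0497) and −0.79 against day 21 (adjusted p = 0.0234).

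Igf1, the main IGF of the adult (mm9 chr10:87321800-87399792, plus strand, 4 exons), had the narrowest range of the 10 after Igfbp3. It had 178, 180.5 and 210.0 FPKM at day 0, 136, 208 and 146 at day 21, and 269, 216 and 154 at day 45. It had 175 and 142 FPKM at days 100 and 200, and 196, 166 and 193 in the knockout. All other groups overlapped day 0 except days 100 and 200, which lay under it. The differences from day 0 were −0.24 (SE 0.22, limma adjusted p = 0.611) at day 21, −0.26 (SE 0.25, adjusted p = 0.466) at days 100 and 200 and −0.04 (SE 0.22, adjusted p = 0.907) in the knockout. At day 45 the difference was 0.13, and −0.10 relative to the median of all genes. Relative to that median it was −0.60 (SE 0.26, limma adjusted p = 0.11) at days 100 and 200. No difference of Igf1 was called with or without the 4 libraries.

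Igfals encodes the acid-labile subunit that holds IGF1 in the blood (mm9 chr17:25015714-25018953, plus strand, 2 exons), and its STAT5 motif matches are printed above. It had 83.6, 60.2 and 100.0 FPKM at day 0 and 52.3, 49.2 and 27.6 at day 21, where all 3 mice were below all day 0 mice. It had 78.7, 70.5 and 48.7 FPKM at day 45, 63.8 and 36.6 at days 100 and 200, and 107, 109.5 and 32.6 in the knockout. The lowest mouse of each group of 3 was the one with Y-linked transcripts. The difference was −0.92 (SE 0.43, limma adjusted p = 0.239) at day 21 and −0.71 (SE 0.48, adjusted p = 0.302) at days 100 and 200. With a term for Y-linked transcripts, added after these data were seen, Igfals fell, with −0.92 (SE 0.25, adjusted p = 0.042) at day 21 and −1.02 (SE 0.29, adjusted p = 0.0185) at days 100 and 200. Without the 4 libraries the values were −0.84 (adjusted p = 0.0633) and −0.90 (adjusted p = 0.0127). In the knockout the difference was −0.13 (SE 0.43, adjusted p = 0.835), and 0.44 (adjusted p = 0.253) without knockout C.

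Igfbp3, the carrier of the same complex (mm9 chr11:7106095-7113926, minus strand, 5 exons), was the least abundant of the 10 at day 0 per length. It had 12.7, 9.47 and 13.6 FPKM at day 0, and 9.47 to 17.4 over all 14 mice, a range of 1.84-fold. The differences from day 0 ran from −0.09 at day 45 to 0.25 (SE 0.20, limma adjusted p = 0.55) at day 21. No difference was called. In liver this gene is known to be expressed mainly in cells other than hepatocytes.

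Igfbp1 encodes a short-lived IGF carrier that insulin represses and fasting raises (mm9 chr11:7097789-7102549, plus strand, 4 exons, beside Igfbp3). It had 85.0, 36.5 and 387 FPKM at day 0, a spread of 10.6-fold among uninjected mice. It had 47.2, 171 and 271 FPKM at day 21, 34.6, 99.0 and 35.0 at day 45, 163 and 221 at days 100 and 200, and 577, 772 and 217 in the knockout. The 2 highest of all 14 were knockout A and B. The knockout difference was 2.10 (SE 0.83, limma adjusted p = 0.0668), and it was called without day 0 C (3.02, adjusted p = 0.0179) or without knockout C (2.63, adjusted p = 0.0224). It was 1.33 (adjusted p = 0.249) without day 0 B, 1.72 (adjusted p = 0.217) without knockout B and 1.87 (adjusted p = 0.0617) without the 4 libraries with Y-linked transcripts. At days 100 and 200 the difference was 0.83 (SE 0.93, adjusted p = 0.544). At day 21 it was 0.28 (SE 0.83, adjusted p = 0.909), and −1.01 without the 4 libraries with Y-linked transcripts. At day 45 it was −1.10, and it ran from −1.86 without day 0 B to −0.17 without day 0 C. No time of day or feeding state of the mice is given in the sources used here.

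Igfbp2, another carrier and one of the most abundant members per length (mm9 chr1:72871076-72899045, plus strand, 4 exons), was lower in the late mice and the knockout. It had 627, 293 and 452 FPKM at day 0 and 262, 371 and 282 at day 21. It had 276, 167 and 159 FPKM at day 45, 93.2 and 289.5 at days 100 and 200, and 135, 191 and 149 in the knockout. Every mouse of day 45, of days 100 and 200 and of the knockout was below every day 0 mouse. Igfbp2 fell, with −1.40 (SE 0.44, limma adjusted p = 0.027) at days 100 and 200 and −1.47 (SE 0.39, adjusted p = 0.0145) in the knockout. The difference was −0.53 (SE 0.39, adjusted p = 0.487) at day 21 and −1.17 at day 45. The late call rested on the day 100 mouse, since without it the difference was −0.59 (adjusted p = 0.429), and it was also lost without day 0 A (0.0937) or C (0.0616). The knockout call was lost without day 0 A (−1.21, adjusted p = 0.0543) or knockout A (−1.37, adjusted p = 0.056).

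Socs2, a STAT5 target that feeds back on the growth hormone receptor (mm9 chr10:94874123-94879491, minus strand, 3 exons), spread widely within the injected and knockout groups. It had 17.3, 19.2 and 21.5 FPKM at day 0, a range of 1.24-fold. It had 2.16, 39.7 and 4.46 FPKM at day 21, 27.0, 23.3 and 9.60 at day 45, 41.9 and 14.7 at days 100 and 200, and 15.2, 40.2 and 6.86 in the knockout. Mice above and below the whole day 0 range occurred in every other group. The differences from day 0 were −1.19 (SE 0.83, limma adjusted p = 0.461), 0.36 (SE 0.93, adjusted p = 0.811) and −0.22 (SE 0.83, adjusted p = 0.847) at day 21, at days 100 and 200 and in the knockout, and −0.07 at day 45. No difference was called.

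Slco1a1 encodes a hepatocyte uptake transporter of bile acids and other anions (mm9 chr6:141855801-141895483, minus strand, 14 exons), and had the widest range of the 10, 1810-fold. It had 39.8, 188 and 70.2 FPKM at day 0 and 37.3, 52.4 and 104 at day 21, where the groups overlapped. It had 9.64, 2.47 and 24.9 FPKM at day 45, 0.583 and 0.352 at days 100 and 200, and 0.104, 0.186 and 10.7 in the knockout. All mice of days 45, 100 and 200 and of the knockout were below all mice of days 0 and 21. Slco1a1 fell, with −5.81 (SE 1.02, limma adjusted p = 0.0012), a 56.0-fold difference, at days 100 and 200 and −5.05 (SE 0.91, adjusted p = 0.0024), a 33.0-fold difference, in the knockout. The knockout difference of Slco1a1 was −6.16 (SE 0.76, limma adjusted p = 4.29e-05) without knockout C. Against day 21, days 100 and 200 were lower by 41.0-fold (−5.36, SE 1.02, adjusted p = 0.0072), lower in 2 of 2 mice. At day 21 the difference from day 0 was −0.45 (SE 0.91, adjusted p = 0.85) and at day 45 it was −3.06.

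The late and knockout falls of Slco1a1 were also found among mice without Y-linked transcripts, with −5.20 (SE 0.45, limma adjusted p = 0.000168) at days 100 and 200, −5.56 (adjusted p = 3.58e-05) in the knockout and −4.95 (adjusted p = 0.000762) for days 100 and 200 against day 21. Among the 4 libraries with Y-linked transcripts it had 188, 104, 24.9 and 10.7 FPKM at day 0, day 21, day 45 and in the knockout, 1 mouse each and without a test. The call against day 21 was lost without the day 100 mouse (−5.47, adjusted p = 0.0779).

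Mup20, which encodes darcin, a male pheromone of mouse urine (mm9 chr4:61711268-61715151, minus strand, 7 exons), was the most abundant of the 10 by its day 0 mean per length. It had 105, 5329 and 41.9 FPKM at day 0, 79.0, 56.3 and 7958 at day 21, 169, 231 and 8336 at day 45, 54.2 and 142 at days 100 and 200, and 45.9, 94.3 and 2966 in the knockout. The high value of each group was the library with Y-linked transcripts, and the others overlapped across groups except at day 45, where both were above the other 8. With all mice no difference was called, with −1.70 (SE 2.59, limma adjusted p = 0.665) at days 100 and 200, a group that holds no library with Y-linked transcripts. With a term for those transcripts that difference was 0.30 (SE 0.53, adjusted p = 0.701). At day 45 the difference was 1.26, and 1.56 without the 4 libraries.

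Mup17 is another major urinary protein gene of the chromosome 4 cluster (mm9 chr4:61252962-61256864, minus strand, 7 exons). It had 69.3, 2033 and 175 FPKM at day 0, 2.41, 3.89 and 7.71 at day 21, and 6.52, 4.98 and 6.49 at day 45. It had 1.42 and 1.39 FPKM at days 100 and 200, and 31.3, 1.45 and 2.84 in the knockout. Every mouse of every other group was below every day 0 mouse. Mup17 fell, with −5.80 (SE 1.08, limma adjusted p = 0.0088) at day 21, −6.93 (SE 1.21, adjusted p = 0.0011) at days 100 and 200 and −5.45 (SE 1.08, adjusted p = 0.0037) in the knockout. Days 100 and 200 against day 21 differed by −1.13 (SE 1.21, adjusted p = 0.583). The difference at day 45 was −5.40, and −4.00 without day 0 B, which has Y-linked transcripts. Without the 4 libraries the differences were −4.77 (adjusted p = 0.0284), −5.53 (adjusted p = 0.002) and −3.65 (adjusted p = 0.0087).

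The reads behind Mup17 can also belong to its near-identical neighbours, so its own level is uncertain. Of the 827 stretches of the read length in the 927-base transcript Mup17-001, 488 (59.0%) occur in transcripts of other Mup genes. None of the 828 stretches of Mup20 and 25 of the 838 of Mup3 do. Mup10 was listed at 0, 0 and 1114 FPKM at day 0 and had 527, 1076 and 1289 at day 21, where Mup17 had at most 7.71. Summed over the 13 genes of the table that share such stretches, Mup17 included, the levels were 75.4, 2058 and 1667 FPKM at day 0 and 642.7, 1257 and 2539 at day 21. The sum thus overlapped between day 0 and day 21, where Mup17 alone did not. It was 543, 174.0 and 401 FPKM at day 45, 81.5 and 114 at days 100 and 200, and 497.5, 178 and 1347 in the knockout, all within the day 0 range. In day 0 A and B, 6 and 11 of the 13 genes were listed at 0, and none in day 0 C. The part that read assignment has in the falls of Mup17 was not tested.

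Mup3, which shares few stretches, was chosen by a list of the Mup genes and not for its day 45 value. It had 3134, 9420 and 2880 FPKM at day 0 and 3138, 3284 and 7819 at day 21. It had 878, 403 and 1706 FPKM at day 45, 124 and 249 at days 100 and 200, and 198, 192 and 1927 in the knockout, so that all later mice were below all mice of days 0 and 21. Mup3 fell, with −4.64 (SE 0.94, limma adjusted p = 0.0027) at days 100 and 200, −3.39 (SE 0.84, adjusted p = 0.0108) in the knockout, and −4.61 (adjusted p = 0.0094) for days 100 and 200 against day 21. At day 45 the difference was −2.38 (SE 0.84, adjusted p = 0.0538), and without the 4 libraries with Y-linked transcripts −2.33 (adjusted p = 0.0037). Of 12 Mup genes tested besides the members it was the 1 called, as a fall, in the late mice and in the knockout, where 3.21% and 14.5% of all genes fell. When the 4 libraries were left out, 3 of the 12 fell at day 45 and 4 at days 100 and 200, and in the knockout 3 fell and 2 rose, beside 4.74%, 5.68% and 28.8% of all genes lower and 28.6% higher in the knockout. With limma none of the 12 was called at day 21 or day 45, where 3 and 2 had an unadjusted p under 0.05.

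**Figure D3:**
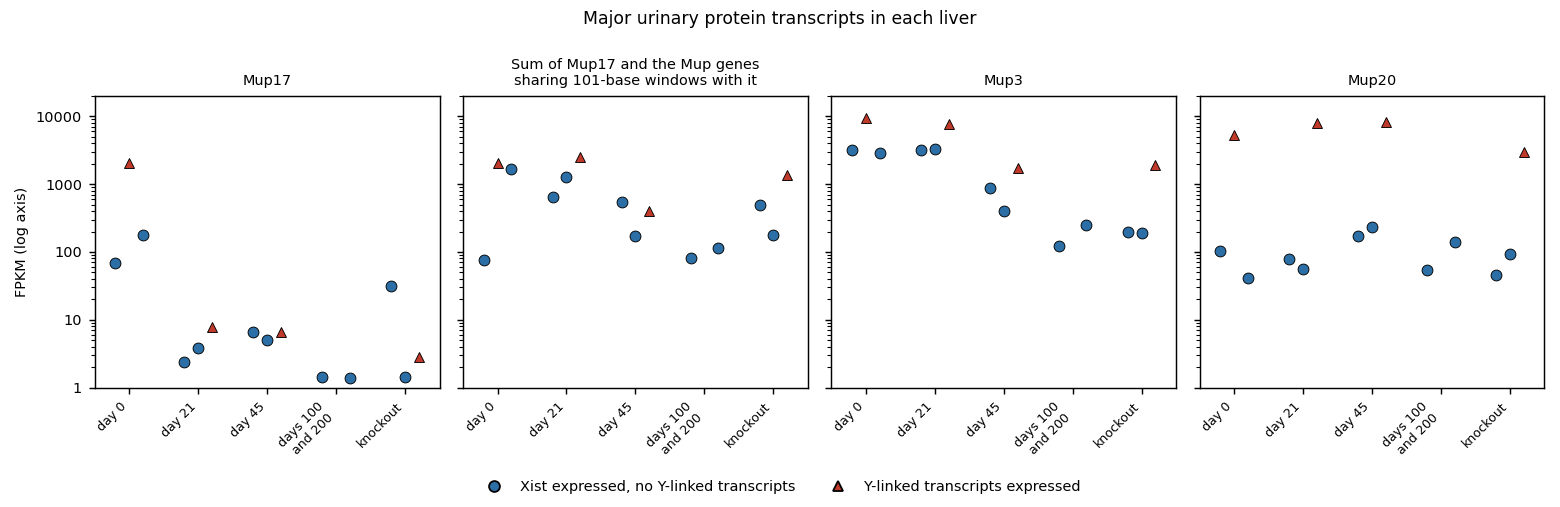
FPKM (log axis) of Mup17, of the sum of Mup17 and the Mup genes that share stretches of read length with it, of Mup3 and of Mup20 in each liver. Triangles are livers with Y-linked transcripts. Mup17 is below every day 0 liver in all other groups, least so in knockout A. The sum of sharing genes at day 21 overlaps the day 0 range, Mup3 is lower from day 45 on, and Mup20 follows the symbols.

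Among 20 other genes of growth hormone signalling, 19 were tested. With all mice the calls after injection were all rises, as were most calls over all genes. At day 21, 3 rose and none fell, where 6.2% of all genes rose, and 1 rose without the 4 libraries with Y-linked transcripts, where 4.24% did. Among them were the inhibitor Socs3 (1.13, limma adjusted p = 0.0397) and the phosphatase Ptpn6 (0.67, adjusted p = 0.0472). At day 45, 5 rose and none fell, where 23.7% of all genes rose and 2.99% fell, with Socs3 (1.86, adjusted p = 0.0012), Ptpn6 (0.85, adjusted p = 0.0056) and the phosphatase Ptpn1 (0.79, adjusted p = 0.0054) among them. At days 100 and 200, 6 rose and none fell (28.4% of all genes rose), among them Socs3 (1.82, adjusted p = 0.0015) and Jak2 (0.82, adjusted p = 0.0376). The list's median difference was 0.16, 0.44 and 0.52 at day 21, day 45 and days 100 and 200, beside 0.06, 0.20 and 0.31 over all genes.

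Socs3, which cytokines induce, had 7.39, 2.69 and 3.26 FPKM at day 0, 11.7, 10.7 and 8.20 at day 21, 18.9, 16.7 and 16.9 at day 45, 23.2 and 12.3 at days 100 and 200, and 12.7, 17.1 and 19.2 in the knockout. Every other mouse was above the day 0 range. In the knockout 4 of the 19 rose (19.3% of all genes rose) and 2 fell (14.5% of all genes fell). The falls were Irs1 (−0.99, limma adjusted p = 0.0273), an adaptor of insulin and IGF receptors, and Stat5b (−0.48, adjusted p = 0.0362), the factor that carries the growth hormone signal in hepatocytes. Stat5b had 12.2, 16.0 and 18.2 FPKM at day 0, 8.99 to 11.5 at day 21 and 9.72 to 11.4 in the knockout, and neither group overlapped day 0. The day 21 difference of Stat5b was −0.54 (limma adjusted p = 0.0593). With the 4 libraries left out, the knockout difference of Stat5b was −0.49 (adjusted p = 0.0634) and that of Jak2, which was then called, −0.61 (adjusted p = 0.0159). Cish, another STAT5-induced inhibitor, passed in no comparison with all mice. Against day 21 the 1 call of the 19 at days 100 and 200 was Stat5a (0.65, limma adjusted p = 0.0362), where 12.1% of all genes rose. With a term for Y-linked transcripts none of the 19 was called there.

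Of the 15 other genes of the IGF system 10 were tested, and Igf2, the fetal IGF, had the largest rise. Igf2 had 1.82, 0.20 and 0.22 FPKM at day 0 and 0.496, 0.616 and 3.02 at day 21. It had 39.8, 255 and 3.66 FPKM at day 45, 2932 and 2374 at days 100 and 200, and 2073, 3169 and 469 in the knockout. All mice from day 45 on were above all mice of days 0 and 21, and per length Igf2 exceeded Igf1 in every late and knockout mouse. Igf2 rose by 4.51 (SE 1.12, limma adjusted p = 0.0107) at day 45, by 10.68 (SE 1.25, adjusted p = 0.000133) at days 100 and 200 and by 9.83 (SE 1.12, adjusted p = 0.000127) in the knockout. With limma none of the list was called at day 21, where 2 of 10 had an unadjusted p under 0.05.

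The other calls of the IGF list were the binding protein Igfbp7, the protease Htra1, Igf2r, which clears IGF2, and the adaptor Grb10 at day 45 and at days 100 and 200, so that 5 of 10 rose and none fell in each, where 23.7% and 28.4% of all genes rose. Igfbp7 rose by 1.80 (adjusted p = 0.000647) and 2.33 (adjusted p = 0.000155) there, and Htra1 by 1.23 (adjusted p = 0.0268) and 2.42 (adjusted p = 0.001). In the knockout 5 rose, where 19.3% of all genes rose, with the binding protein Igfbp4 (0.79, adjusted p = 0.0382) in place of Igf2r, and Insr, the insulin receptor, fell by 1.40 (SE 0.25, limma adjusted p = 0.0022), the 1 fall of 10 where 14.5% of all genes fell. Insr had 14.9, 18.4 and 17.4 FPKM at day 0 and 3.78, 5.31 and 9.19 in the knockout. Against day 21, 4 of the 10 rose at days 100 and 200, where 12.1% of all genes rose. When the 4 libraries with Y-linked transcripts were left out, 5 of the 10 rose at day 45, at days 100 and 200 and in the knockout, and 1 fell in the knockout. Of the growth hormone signalling list 7 rose and none fell then at day 45, and 7 rose and 1, Irs1 (−0.68, limma adjusted p = 0.0389), fell at days 100 and 200. In that fit 24.7% of all genes rose at day 45, 33.9% at days 100 and 200 and 28.6% in the knockout, and 4.74%, 5.68% and 28.8% fell.

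**Figure D4:**
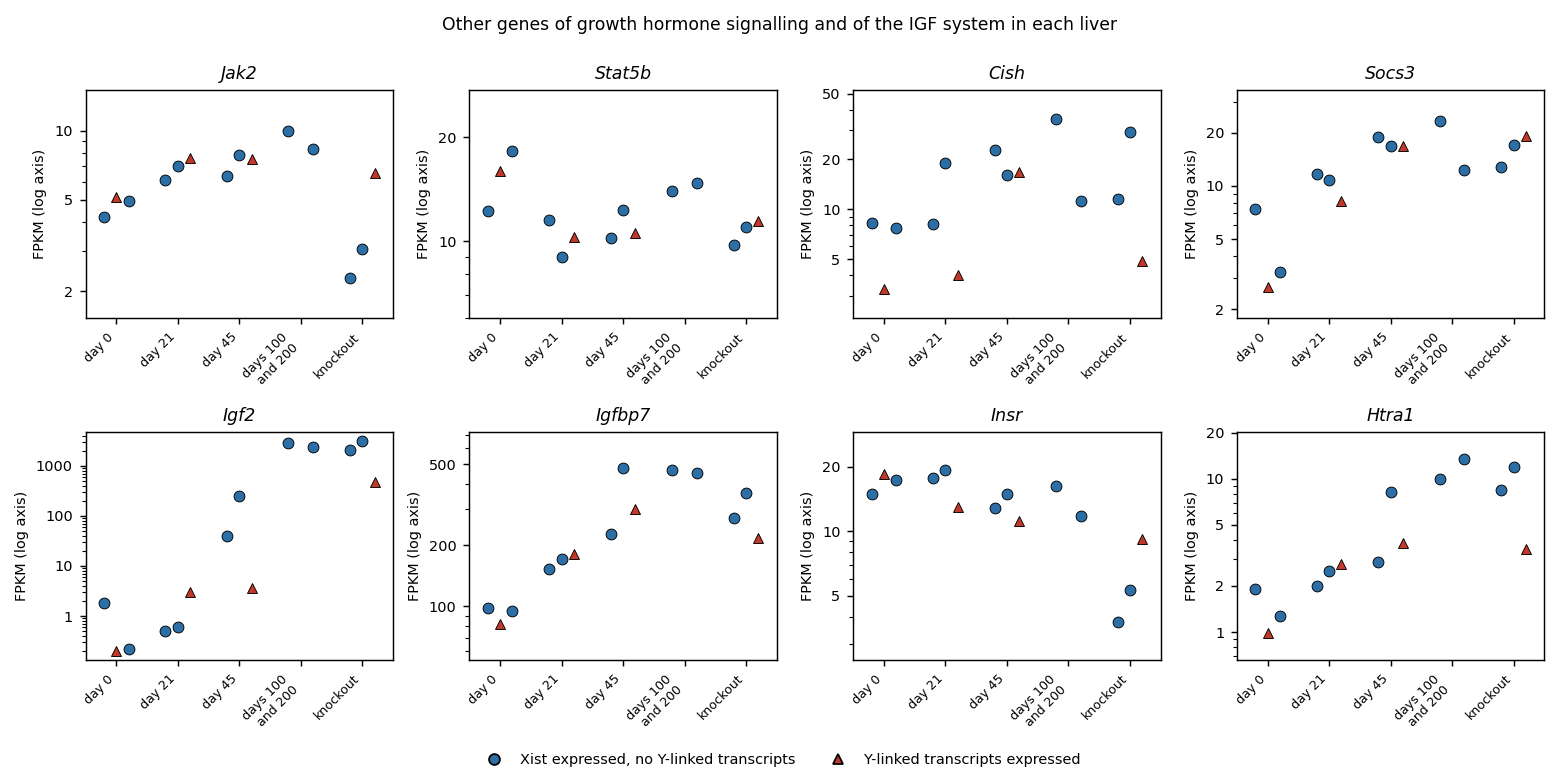
FPKM (log axis) of 8 other genes of growth hormone signalling and the IGF system in each liver, with triangles for livers with Y-linked transcripts. Igf2 is at 469 FPKM or more in every late and knockout liver and at 3.02 or less in every liver of days 0 and 21, Socs3 and Igfbp7 are above the day 0 livers in all others, and Insr is below all others in the knockout.

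Genes of the liver that differ by sex under growth hormone were read as lists beside these results. Of 8 male-biased genes, 6 were highest in the library with Y-linked transcripts in all 4 groups of 3, and of 16 female-biased genes 10 were lowest there, while no gene of the growth hormone signalling list was in either set. The male-biased genes summed to 116 to 3140 FPKM at day 0, 237 to 351 at days 100 and 200 and 529 to 1470 in the knockout. With all mice and limma none of the 8 male-biased genes was called in any comparison, and at most 1 of 8 had an unadjusted p under 0.05. Among the female-biased genes Prom1 (2.44, limma adjusted p = 0.0051) and Ntrk2 (2.40, adjusted p = 0.0015) rose at day 45, both of which are also expressed in other cell types.

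Without the 4 libraries the male-biased genes Elovl3 (−1.20, limma adjusted p = 0.0064) and Hsd3b5 (−2.2, adjusted p = 0.0066) fell at day 45, and Cyp2d9 (2.53, adjusted p = 0.0033) and Gstp1 (1.32, adjusted p = 0.0078) rose. Of the 16 female-biased genes 6 rose and 1 fell then at day 45, and 5 rose and 6 fell at days 100 and 200. Over all genes of that fit 24.7% rose and 4.74% fell at day 45, and 33.9% rose and 5.68% fell at days 100 and 200. The sulfotransferase gene Sult3a1 had 152 and 157 FPKM in the day 0 mice without Y-linked transcripts and 1.26 and 1.56 at days 100 and 200, a fall (−6.01, limma adjusted p = 0.000981). Both lists thus held rises and falls.

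Levels of other cell types differed between the same groups. The 5 cholangiocyte markers (Krt19, Krt7, Epcam, Sox9 and Spp1) summed to 46.1 to 59.2 FPKM at day 0, 137 to 203 at day 21, 405 to 1330 at day 45, 1920 to 2920 at days 100 and 200 and 551 to 794 in the knockout, and 5 of 5 rose at day 45, at days 100 and 200 and in the knockout, where 23.7%, 28.4% and 19.3% of all genes rose. The hepatocyte markers summed to 25500 to 26600 FPKM at day 21, 20600 to 27000 at day 45, 14500 to 23400 at days 100 and 200 and 24100 to 30700 in the knockout. The part of a changed mix of cells in the differences of the members was not tested.

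The genes whose log2(FPKM + 1) was most like that of each member over the 14 mice are given as a description, with mice and groups shared by both. For Ghr they were Hibadh (Pearson r = 0.968), 2810007J24Rik (0.964) and Il1rap (0.956), and for Slco1a1 they were Mup3 (0.98) and Ces1f (0.951). Mup20 was most like Cyp4a12b (0.967), a male-biased P450 gene, Eif2s3y (0.965) and Kdm5d (0.960), both Y-linked. Igfbp1 was most like Irf2bp2 (0.935), Igfbp2 like Hebp1 (0.931) and Mup17 like Stk16 (0.897). The closest genes of Igfals (Zfp707, 0.849), Igf1 (Acot1, 0.811), Igfbp3 (Ppargc1a, 0.743) and Socs2 (D0H4S114, 0.739) were less alike. Between members the highest value was that of Ghr and Slco1a1 (0.875) and the lowest that of Igfals and Mup20 (−0.621).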

How the data were processed

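RNA-seq of 14 livers was used, 1 library per mouse, with the groups taken from the sample labels. The authors sequenced poly-A RNA as paired reads, aligned it to mm9 with TopHat and deposited FPKM from Cufflinks 2.2.1 with quartile normalization and ribosomal, small nucleolar and mitochondrial sequences removed. The small RNA table, aligned with Bowtie 0.12.7, was deposited by the authors as RPM with 1 added, and was used only for the share of miR-122. Of 22308 rows, those of 224 symbols with several rows were summed. How Cufflinks was set to treat reads that match several genes is not given in the sources used here.

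limma 3.58.1 in R 4.3.3 (lmFit, contrasts, eBayes with trend) was run on log2(FPKM + 1) with all 5 groups fitted together, after genes whose mean over the 14 mice was under 1 FPKM were dropped, which left 11354. p-values were adjusted by Benjamini-Hochberg over all genes tested within a comparison, with a threshold of 0.05. The fit was tested on simulated data. Nothing says whether mice of a group shared a litter or cage. The members and lists were chosen with earlier results of these data known, and the lists are of growth hormone signalling, the IGF system, sex-biased genes, Mup genes, insulin and fasting, clock, acute phase and cell types. Named from each list were up to 3 rises and 3 falls of largest log2 difference past the threshold, and for each member up to 3 of the most correlated genes. A few genes that this rule names are not reported here. Jak2, Stat5b, Cish, Mup10 and the sex-biased genes outside that rule were chosen after their values were seen. Shared stretches were counted between annotated Mup transcripts, and promoters came from RefSeq. Alternatives were another pseudocount (0.1), no filter, centring on the median, fits of only the groups compared, no trend, another row per symbol, a replicate block, each mouse left out, and, added after seeing the data, a term for Y-linked transcripts and leaving out the 4 libraries that have them. Columns of the authors' tests were not used. Other steps used pandas 2.3.3, numpy 2.4.6 and matplotlib 3.10.9 under Python 3.11.15.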

Additional observations from a re-analysis of the deposited data

Results flagged for a closer look

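Slco1a1 differed in its response between times after injection. Its difference from day 0 was −5.81 at days 100 and 200 and −0.45 at day 21 on the log2 scale, and the difference between these, −5.36 (SE 1.02), passed limma's test (adjusted p = 0.0072).

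In 4 further cases all mice of one group lay on the opposite side of the mean of the day 0 log2 values from all mice of another, and these differences were not tested. Ghr was lower at day 45 than at day 21 by a mean log2 difference of −0.67, and lower in the knockout than at day 21 by −1.21. Igfbp1 was higher at days 100 and 200 than at day 45 by 1.92, and higher in the knockout than at day 45 by 3.19. Igfbp1 spread over 10.6-fold among the day 0 mice themselves.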

How the results depend on the processing

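No direction of a called difference reversed in any alternative. Over all alternatives, 716 values of members were on the same side of the threshold with the same direction, 10 came past it, 15 fell short of it and 9 uncalled or untested values moved by more than the spread between mice. Of the values of list genes, 1477 stayed the same in this sense and 353 were weaker. With a term for Y-linked transcripts, added after seeing the data, 2 members were called at day 21 in place of 1. Without the 4 libraries that have them, also added then, 5 members were called at days 100 and 200 in place of 3, and 2 in place of 1 for days 100 and 200 against day 21. Fitting only the groups compared gave 2 in place of 4 in the knockout, where Mup17 (adjusted p = 0.0538) and Ghr (0.136) were lost, and 2 for days 100 and 200 against day 21. There the day 100 mouse alone gave 2 and the day 200 mouse alone 0. With 1 mouse left out, a late mouse left alone being assumed to vary like the other groups, 1 member was called at day 21, 2 to 3 at days 100 and 200, 2 to 5 in the knockout, 0 to 2 for days 100 and 200 against day 21, and 6 to 9 of the other axis genes at day 45 in place of 10, with 6 without day 45 B.

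Replicate letters were not found to pair the mice, since deviations of same-letter mice correlated at −0.447 to 0.501 (median 0.019, 18 pairs) and 4 of 12 libraries were closest to their own letter. The highest value was that of day 21 C with day 45 C, both with Y-linked transcripts. The lowest was that of day 0 C with day 45 C, of which only day 45 C has them. The split by these transcripts enters the values, so they cannot show that no mice were paired. With the replicate block 1 member was called at day 21, 4 in the knockout and 8 other axis genes at day 45, and 470 in place of 865 of all genes at day 21. The mice of days 100 and 200 have no letter, so no paired fit was possible for them.

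Over all alternatives the genes called ranged from 243 to 1774 at day 21, 1781 to 4306 at day 45, 1626 to 5816 at days 100 and 200, 1109 to 7088 in the knockout and 135 to 2897 for days 100 and 200 against day 21. Centring each library on its median, which moved the all-gene median from 0.20, 0.31 and 0.26 at day 45, at days 100 and 200 and for the latter against day 21, turned 2688 rises and 339 falls at day 45 into 1644 and 795, 3227 and 365 at days 100 and 200 into 1785 and 993, and 1370 and 71 in the last into 500 and 138. It left the number of member calls the same in every comparison. Depth is unknown, which limits the reading of FPKM under about 1, as of Slco1a1 in the late mice.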

Other observations

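Genes of insulin action and fasting, which bear on Igfbp1 and Igfbp2, were read from a list of 11. At day 45, 2 of 11 fell and none rose, beside 2.99% of all genes lower. G6pc, which releases glucose from hepatocytes, fell by 2.59 (SE 0.59, limma adjusted p = 0.0065), with 228, 463 and 496 FPKM at day 0 and 80.4, 54.9 and 52.0 at day 45. With limma none of the list was called at day 21, where 1 of 11 had an unadjusted p under 0.05. The list's median difference was −0.45 at day 45, beside 0.20 over all genes.

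Clock output genes differed between the uninjected mice. Dbp, whose RNA cycles with the time of day, had 38.5, 5.99 and 2.60 FPKM at day 0 and 49.0 to 72.4 at day 21, and rose by 2.62 (limma adjusted p = 0.0327) at day 21 and 2.61 (adjusted p = 0.0123) at day 45. Of 10 clock genes tested, 3 rose at day 21 and 4 at day 45, where 6.2% and 23.7% of all genes rose, and none fell. Without the 4 libraries with Y-linked transcripts 1 of the 10 rose at each, where 4.24% and 24.7% of all genes rose. In the knockout 2 rose and 2 fell, Clock (−1.67, adjusted p = 0.0253) and Cry1 (−0.78, adjusted p = 0.0129), where 19.3% of all genes rose and 14.5% fell. The time at which livers were taken is not given in the sources used here, and its part in the levels of Igfbp1 and Socs2 was not tested.

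Acute phase genes were read beside Socs3, which the same cytokines induce. Of 7 genes, 1 rose at day 21 (Lcn2, 2.58, limma adjusted p = 0.0323), 4 at day 45, 4 at days 100 and 200 and 5 in the knockout, where 6.2%, 23.7%, 28.4% and 19.3% of all genes rose, and none fell. Their summed level was 6530 to 8010 FPKM at day 0 and 10300 to 13000 in the knockout, with no overlap, and 5890 to 7520 at day 21 and 7230 to 7630 at day 45, which overlap day 0. At days 100 and 200 it was 8580 to 8590 FPKM, above the day 0 range. Macrophage markers rose in 5 of 5 cases at day 45, with a summed level of 154 to 281 FPKM at day 0 and 491 to 501 at day 45. Lymphocyte markers rose in 4 of 4 cases at day 21, and in 2 of 4 without the 4 libraries with Y-linked transcripts, and stellate and fibroblast markers in 6 of 6 at day 45. Of the 4 endothelial markers 2 rose at day 21 and 1 at day 45, and Lyve1 fell in the knockout (−0.93, limma adjusted p = 0.0165). Without the 4 libraries with Y-linked transcripts none of these markers was called in the knockout.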
